A study of Homo sapiens with 12 samples.

Results

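The 37 genes described here belong to the unfolded protein response of the endoplasmic reticulum (ER) and to the integrated stress response. They were taken by symbol, as a list of named genes, from a count table of 20289 genes. No value entered the rule, although the list was drawn up with earlier results of these data known. All 37 had counts high enough to be tested. The genes fell into 4 roles: 14 ER chaperones and folding enzymes, 4 genes of ER-associated degradation (ERAD), 5 stress sensors and their transcription factors, and 14 genes listed as targets of the transcription factor ATF4. The chaperones and the ERAD genes together are called the ER class (18 genes). RNA was sequenced from U251, an established human glioblastoma cell line, with 12 libraries in 4 groups of 3. Control cells, labelled wild type, and cells with a short hairpin RNA against CD44, a hyaluronan receptor at the cell surface, received either the solvent DMSO or 50 µM temozolomide, a DNA-methylating drug used against glioblastoma, for 24 h. The groups are named control DMSO and knockdown DMSO, and likewise control temozolomide and knockdown temozolomide. The titles of the control DMSO libraries name a control hairpin, whereas those of the control temozolomide libraries carry the letters NC. The column names of the count table carry NC for both groups, which are read here as the same control. All libraries came from 1 cell line, the sources used here name no second hairpin, and they do not say whether replicates were separate cultures, so p-values measure the spread between these libraries, which may be technical.

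When unfolded proteins build up in the ER, the membrane sensors IRE1 (gene ERN1), ATF6 and PERK (EIF2AK3) are activated. ATF6 and the transcription factor XBP1, whose mRNA IRE1 splices, raise the genes of chaperones, disulfide isomerases and the degradation machinery. PERK and related kinases phosphorylate the initiation factor eIF2, which slows protein synthesis while translation of ATF4 increases. ATF4 then raises genes for amino acid import and synthesis, and also the stress effectors CHOP (DDIT3), TRIB3 and CHAC1. PPP1R15A, also called GADD34, guides a phosphatase to eIF2 and closes the loop. Splicing of XBP1, phosphorylation and translation were not measured, and every value below is a level of polyadenylated RNA.

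Promoter sequences of these genes are shown first because ATF6, XBP1 and ATF4 act through known DNA elements and the comparison of the ER class with the ATF4 targets runs through the results. Windows of 250 bases before the transcription start came from RefSeq (assembly GRCh38.p14), and 34 of the 37 genes matched by symbol (not PDIA3, SHMT2 or SLC7A11), some with several starts. In all, 4 motifs were searched on both strands. The ER stress element is CCAAT, then any 9 bases, then CCACG. The ER stress element II is ATTGG, any base, then CCACG. The other motifs were the UPR element TGACGTGG and the C/EBP-ATF response element, which is TGATG, any base, then AA. The ER stress element was found in 7 of 22 windows of the ER class (31.8%) against 26 of 35116 windows in the whole RefSeq table (0.074%). Of these 7, 2 are overlapping windows of CANX that hold the same match, and the members' windows are part of the whole table. Element II was found in 3 of those 22 windows (13.6%, against 0.0513% of all), and the UPR element in 1 (4.55%, against 0.612%). None of these 3 motifs was found in the 18 windows of the ATF4 targets. The C/EBP-ATF element was found in 2 of those 18 windows (11.1%), in 1 of the 22 windows of the ER class (4.55%) and in 3.14% of all windows. Counted by gene, exact matches to an ER stress or UPR element were held by 9 of the 17 ER-class genes with a window. They were held by 0 of 12 ATF4 targets and 1 of 5 sensors and factors. The motifs were picked as known elements of ATF6, XBP1 and ATF4, so a high share in the ER class was likely from the outset. These shares are a description and were not tested. A match describes the letters of the window and not a bound site. Variants of the motifs and sites outside the windows were not searched, so a gene without a match may still have the element. The whole windows of HYOU1, the gene with the largest change among the 37, at chr11:119057206-119057455 (minus strand), and of HSPA5, its partner chaperone that behaved differently, at chr9:125241344-125241593 (minus strand), run 5′ to 3′ with matches in capitals.
HYOU1: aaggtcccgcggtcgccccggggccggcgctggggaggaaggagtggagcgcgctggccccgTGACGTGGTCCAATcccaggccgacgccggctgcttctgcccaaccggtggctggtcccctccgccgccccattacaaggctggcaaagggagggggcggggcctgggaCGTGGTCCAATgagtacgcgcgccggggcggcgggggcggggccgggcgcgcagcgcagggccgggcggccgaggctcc
HSPA5: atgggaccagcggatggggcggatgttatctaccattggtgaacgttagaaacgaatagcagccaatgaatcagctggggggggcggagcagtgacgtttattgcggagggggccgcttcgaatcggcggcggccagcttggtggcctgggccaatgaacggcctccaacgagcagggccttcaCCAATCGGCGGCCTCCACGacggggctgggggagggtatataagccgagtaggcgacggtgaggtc
In HYOU1 the UPR element, 188 bases before the start, overlaps the first element II match, 185 bases before it, and a second element II match lies 79 bases before the start; both element II matches are on the opposite strand. HSPA5 has 1 exact match to the ER stress element, 66 bases before the start. Copies that differ from the motif were not searched for in either gene.

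The other matches among the members are given as 29 bases of the gene's strand around the match, again in capitals, to let the classes be compared. The ER stress elements were those of HSP90B1 (chr12:103930211-103930239 and chr12:103930316-103930344, plus strand), CRELD2 (chr22:49918549-49918577, plus strand), CALR (chr19:12938379-12938407, plus strand), CANX (chr5:179698773-179698801, plus strand), PDIA6 (chr2:10812848-10812876, minus strand) and XBP1 (chr22:28800598-28800626, minus strand). Those of CALR and CRELD2 and the second of HSP90B1 are on the opposite strand and so read from CGTGG to ATTGG.
HSP90B1, first: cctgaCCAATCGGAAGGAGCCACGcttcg
HSP90B1, second: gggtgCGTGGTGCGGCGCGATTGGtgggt
CRELD2: cctctCGTGGCGAACTCGGATTGGgccat
CALR: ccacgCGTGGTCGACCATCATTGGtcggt
CANX: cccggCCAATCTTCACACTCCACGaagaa
PDIA6: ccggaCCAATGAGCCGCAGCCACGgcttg
XBP1: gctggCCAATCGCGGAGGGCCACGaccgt
The ER stress elements II of HERPUD1 (chr16:56932016-56932044, plus strand) and SDF2L1 (chr22:21642105-21642133, plus strand; match on the opposite strand) were the following.
HERPUD1: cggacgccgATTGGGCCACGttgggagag
SDF2L1: cctcggaagCGTGGACCAATcaaaaccct
The C/EBP-ATF elements of the ATF4 targets ASNS (chr7:97872458-97872486, minus strand) and CHAC1 (chr15:40953252-40953280, plus strand; match on the opposite strand), and of HERPUD1 (chr16:56931956-56931984, plus strand; match on the opposite strand), were these.
ASNS: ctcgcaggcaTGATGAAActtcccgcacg
CHAC1: tcccctgccgTTGCATCActcctgccagg
HERPUD1, C/EBP-ATF: acgcggcgggTTGCATCAgcccgtgccca

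Library totals ran from 13506958 to 24757965 estimated counts, the highest being control temozolomide 1, and 12821 genes entered the test. Levels are CPM (a gene's counts in 1000000 of the library) scaled by trimmed mean of M values, and changes are log2 ratios from 1 edgeR quasi-likelihood fit, called at an adjusted p below 0.05 over all genes tested. CD44 (chromosome 11, 35138870 to 35232402, GRCh38) was lower in every knockdown library, at 419 to 421 CPM against 1043 to 1127 under DMSO and 319.8 to 333 against 804 to 851 under temozolomide. Of 10 glial and glioma markers, VIM, NES, SOX2, EGFR, PDGFRA and FABP7 were well measured, at 9.88 to 18.6 CPM for the lowest of these, FABP7, and 2442 to 3885 for the highest, VIM. GFAP stayed at 0.242 to 1.80 CPM, S100B below 0.48, and AQP4 and OLIG2 at or near 0. Of 8 markers of blood, endothelial and epithelial cells, CD3E and HBB were at 0 in all libraries and PTPRC, PECAM1 and EPCAM below 1 CPM, whereas CD68 (13.4 to 27.1), CDH5 (12.2 to 46.2) and KRT14 (56.0 to 269.8) were measured. Summed over the 8, the level was 307 to 331 CPM in control and 155 to 165 in knockdown cells given DMSO, and with temozolomide at 228 to 235 in control and 96.5 to 106 in knockdown cells. It moved with knockdown mostly through KRT14, and its part in the results below was not tested. Base composition differed between groups: genes above 60% GC minus genes below 40% GC stood at 0.07 to 0.22 (log2, relative to the mean of all libraries) in control DMSO and at -0.08 to -0.03 in knockdown DMSO. The temozolomide groups ran from -0.13 to 0.08.

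Measured per transcript length (FPKM, the authors' unit), the 6 highest of the 37 genes were ER chaperones and folding enzymes, while other members of the ER class, such as DNAJB9 at 8.01 FPKM and DNAJC3 at 8.62, were among the lowest. The lectin chaperones CANX and CALR, which hold newly made glycoproteins, had mean levels of 655 and 586 FPKM over the 12 libraries. HSP90B1 (GRP94) and HSPA5 (BiP), the main ER members of the HSP90 and HSP70 families, followed at 355 and 345 FPKM. ATF4 RNA, at 218 FPKM, was as high as that of the mitochondrial one-carbon enzyme MTHFD2, also 218 FPKM, and ranked above all but 6 of the genes. Of the stress effectors, CHAC1, TRIB3, PPP1R15A and SESN2 lay between 16.0 and 6.89 FPKM, and ERN1 was the lowest at 1.82. No list member approached the detection floor, since 3 counts corresponded to 0.121 to 0.222 CPM.

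**Figure D1:**
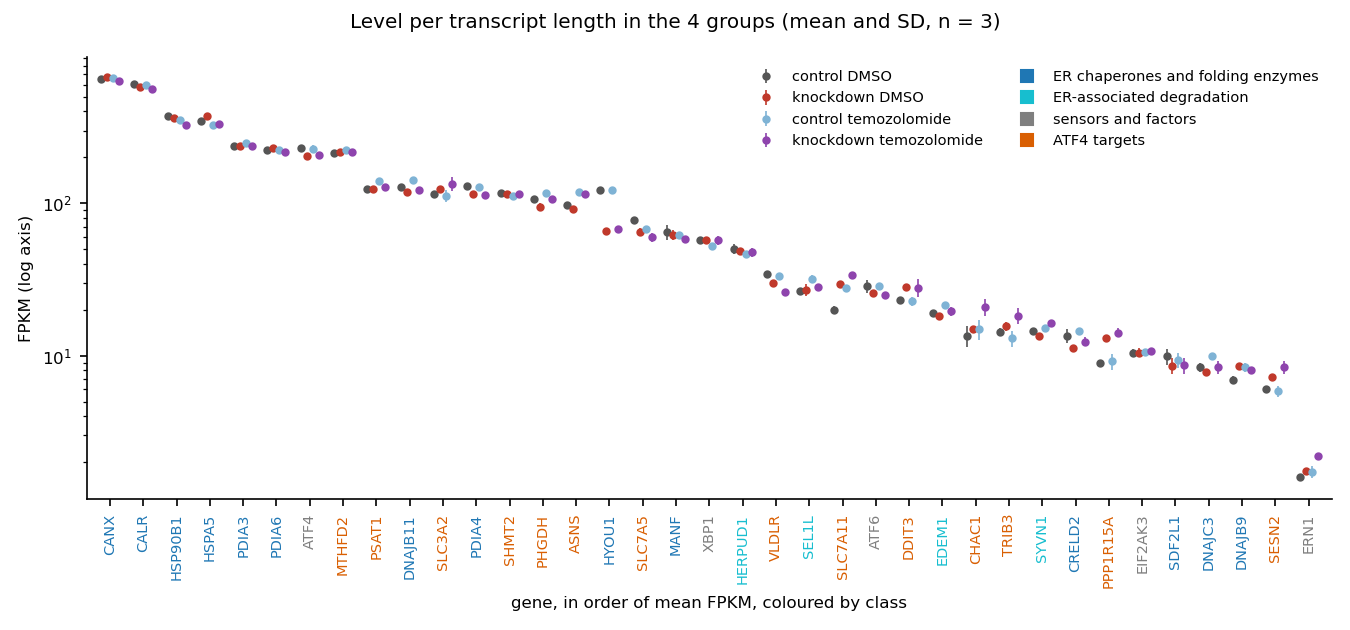
Mean level per transcript length (FPKM, log axis) of the 37 genes in the 4 groups, ordered by their mean; points are group means, bars the SD of 3 libraries, and gene names are coloured by class. Levels fall from 655 FPKM for CANX to 1.82 for ERN1, and the groups lie close together beside that range except at a few genes such as HYOU1.

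With knockdown of CD44 under DMSO, 6 of the 14 chaperone and folding genes fell, 1 rose and 7 did not pass. Over all genes tested 21.4% were called lower and 21.1% higher. HYOU1 had the largest fall of the 14. HYOU1 (also called GRP170 or ORP150), a large HSP70-like chaperone that exchanges nucleotide on BiP, lies on chromosome 11, 119044189 to 119057202 (GRCh38, minus strand). It was at 538, 554 and 512 CPM in the control DMSO libraries and at 272, 282 and 274 in knockdown DMSO. With temozolomide it was at 510.2, 502 and 502 CPM in control and 287, 284 and 289.8 in knockdown cells. The lowest control library was therefore far above the highest knockdown library, and the groups did not overlap under either treatment. In bulk RNA, less RNA per cell and fewer expressing cells cannot be told apart. The log2 change was -0.95 (SE 0.03, edgeR adjusted p = 6.16e-15) under DMSO, a fall of 48.3%, and -0.81 (SE 0.03, edgeR adjusted p = 6.54e-14) under temozolomide, a fall of 43.1%. Only 1.34% of all genes tested had a lower log2 change under DMSO, and 1.77% under temozolomide. Of the exon bases of HYOU1, 8.66% are shared with other annotated genes, none of them in the count table.

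HSPA5, the chaperone that HYOU1 serves, did not share this fall. It stood at 1092, 1081 and 1048 CPM in control and 1117, 1161 and 1098 in knockdown cells given DMSO, and with temozolomide at 954, 963 and 962 in control and 944, 968 and 964 in knockdown cells. The knockdown change was 0.07 (SE 0.03, edgeR adjusted p = 0.0693) under DMSO and -0.0016 (edgeR adjusted p = 0.974) under temozolomide, neither of which passed the threshold, although all 3 knockdown DMSO libraries were above the control DMSO ones. Temozolomide libraries were the lower ones in both kinds of cell, as taken up below.

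Smaller falls with knockdown were seen in the isomerases and cochaperones. PDIA4 (ERp72), a disulfide isomerase, was at 371, 379 and 368 CPM in control and 317, 329 and 325 in knockdown cells given DMSO, and with temozolomide at 350.4, 348 and 356 in control and 305, 305 and 306 in knockdown cells. Its groups did not overlap, and it fell by 0.20 on the log2 scale under DMSO (SE 0.03, edgeR adjusted p = 1.37e-05) and by the same amount under temozolomide (edgeR adjusted p = 1.36e-05). CRELD2, a secreted ER protein with isomerase activity, went from 20.6, 17.6 and 21.7 to 16.4, 16.0 and 16.2 CPM under DMSO, a log2 change of -0.30 (SE 0.08, edgeR adjusted p = 0.00581). DNAJB11 (ERdj3), a BiP cochaperone that binds unfolded clients, changed by -0.15 (SE 0.04, edgeR adjusted p = 0.003) under DMSO and -0.25 (SE 0.04, edgeR adjusted p = 1.13e-05) under temozolomide. DNAJC3 (p58IPK), another BiP cochaperone, changed by -0.16 (SE 0.06, edgeR adjusted p = 0.0321) and -0.24 (SE 0.06, edgeR adjusted p = 0.00191), and CALR by -0.09 and -0.13, both passing. Under temozolomide HSP90B1 also fell, from 929.6, 971 and 996 to 826, 880.1 and 898 CPM, with a log2 change of -0.15 (SE 0.03, edgeR adjusted p = 0.00102); under DMSO its change of -0.08 did not pass (edgeR adjusted p = 0.0772). CANX and PDIA3 (ERp57), which work together on glycoproteins, were called lower under temozolomide with a log2 change of -0.09 each, calls lost with library totals alone, in limma on FPKM, and without control temozolomide 3 or knockdown temozolomide 1 (CANX also without control temozolomide 2).

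One chaperone gene moved the other way. DNAJB9 (ERdj4), a cochaperone that also keeps IRE1 inactive, rose with knockdown under DMSO, from 18.4, 16.6 and 17.04 to 21.8, 20.5 and 20.3 CPM, a log2 change of 0.26 (SE 0.08, edgeR adjusted p = 0.00865). With temozolomide it stood at 21.7, 18.9 and 19.6 CPM in control and 18.9, 18.8 and 18.8 in knockdown cells, a change of -0.10 that did not pass. SDF2L1, MANF and PDIA6 gave log2 changes of -0.25, -0.11 and 0.01 under DMSO and passed in neither knockdown comparison; the SE of SDF2L1 was the widest of these, at 0.13.

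Genes of ER-associated degradation carry misfolded proteins back to the cytosol for the proteasome. Of the 4 listed, 1 fell under DMSO, near the 21.4% of all genes called lower there. Under temozolomide 2 fell, where 20.3% of all genes were called lower. SYVN1 (HRD1), the ubiquitin ligase, fell under DMSO by 0.16 on the log2 scale (SE 0.06, edgeR adjusted p = 0.0303), and its change under temozolomide was 0.03. Its adaptor SEL1L and the mannosidase-like EDEM1 fell under temozolomide, with log2 changes of -0.14 (SE 0.03, edgeR adjusted p = 0.00268) and -0.21 (SE 0.04, edgeR adjusted p = 0.000456). HERPUD1 passed in neither, with changes of -0.05 and 0.04.

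Counted over the ER class under DMSO, 1 of 18 genes rose and 7 fell with knockdown, with a median log2 change of -0.09. Over all genes tested 21.1% were called higher and 21.4% lower, with a median of -0.0014. Under temozolomide 0 rose in edgeR (0 also at an unadjusted p below 0.05 and 0 in DESeq2) and 11 fell, with a median of -0.13, where 22% of all genes were higher and 20.3% lower. Both knockdown comparisons use separate libraries, and 6 genes fell in both: 85.7% of those that fell under DMSO and 54.5% of those that fell under temozolomide. For all genes tested the shares were 65.8% and 69.5%. The count under DMSO was sensitive to scaling and to base composition: 4 fell with scaling by library totals alone or in limma on FPKM, 11 fell after a correction for GC content, and 4 fell without knockdown DMSO 3. HYOU1, PDIA4 and CRELD2 passed in all of these, whereas CALR, DNAJC3 and SYVN1 did not, and DNAJB9 lost its rise with the GC correction. DNAJC3 was also lost without control DMSO 2 or any knockdown DMSO library, and SYVN1 without control DMSO 1 or 3 or knockdown DMSO 1 or 3. Under temozolomide limma on FPKM called 7 lower, or 6 with no filter, the calls of CALR, EDEM1, CANX and PDIA3 being lost.

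**Figure D2:**
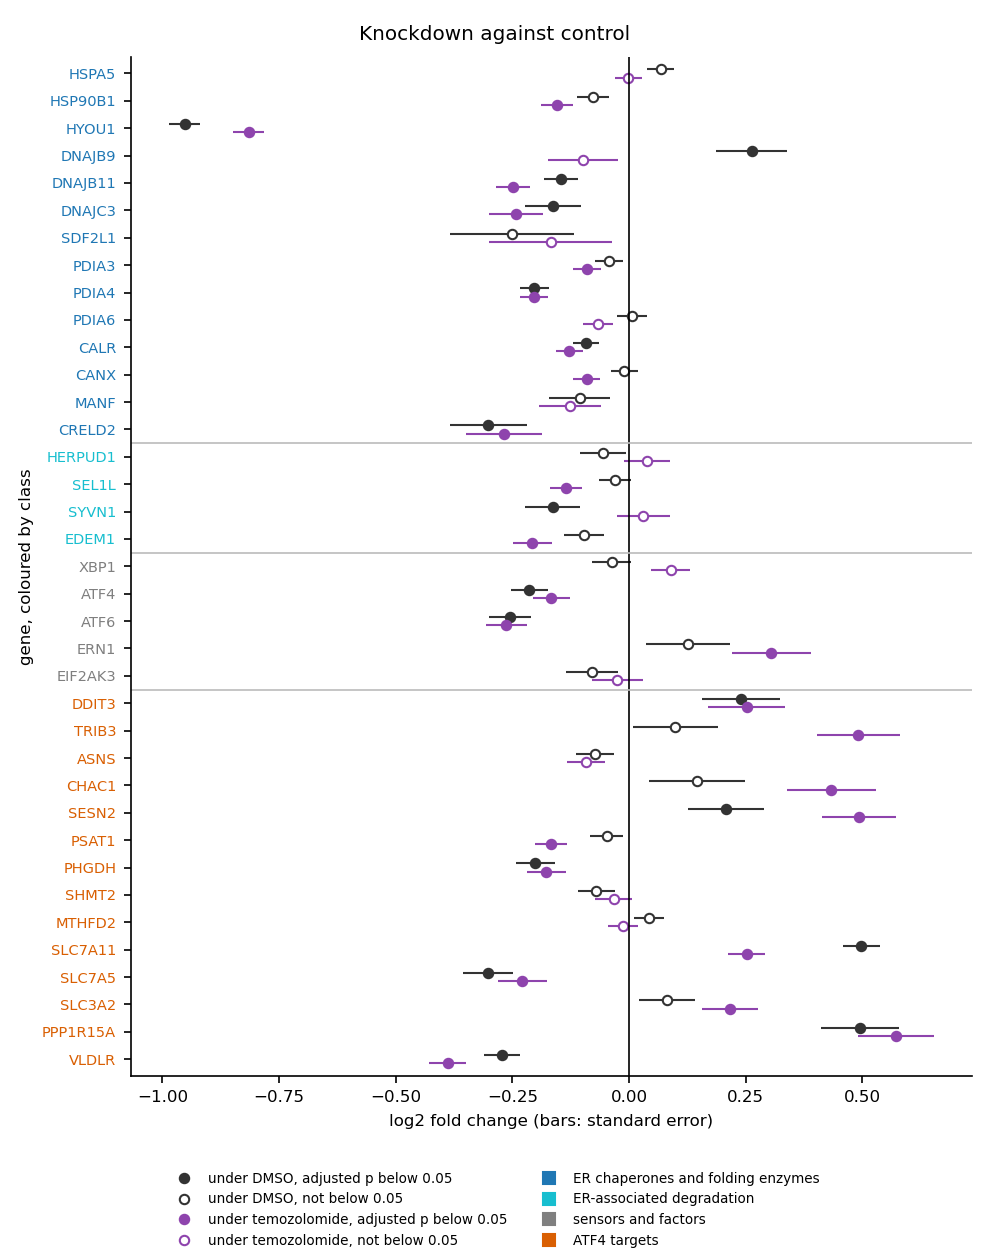
Log2 fold change of knockdown against control for each of the 37 genes, under DMSO (black) and under temozolomide (purple); bars are standard errors, filled points passed the adjusted p threshold of 0.05, and gene names are coloured by class. HYOU1 stands apart at -0.95 and -0.81, most other chaperone genes lie slightly below 0, and the ATF4 targets spread from -0.39 to 0.57.

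Among the sensors and factors, ATF4 and ATF6 fell with knockdown. ATF4 was at 344, 329 and 344 CPM in control and 292, 302 and 283 in knockdown cells given DMSO, and with temozolomide at 323, 335 and 300.2 in control and 289, 287 and 277 in knockdown cells. Knockdown libraries were the lower ones under both treatments, and the log2 change was -0.21 (SE 0.04, edgeR adjusted p = 0.000159) under DMSO and -0.17 (SE 0.04, edgeR adjusted p = 0.00171) under temozolomide. ATF6, the membrane-bound factor released by cleavage in the Golgi, was at 99.0, 93.9 and 86.2 CPM in control and 77.6, 78.1 and 77.9 in knockdown cells given DMSO. Its log2 changes were -0.25 (SE 0.04, edgeR adjusted p = 9.46e-05) and -0.26 (SE 0.04, edgeR adjusted p = 5.56e-05); in limma on FPKM the change under DMSO did not pass. ERN1, the IRE1 kinase and endonuclease, had 13.9, 11.4 and 13.3 CPM in control and 15.9, 16.5 and 15.4 in knockdown cells under temozolomide, a rise of 0.30 (SE 0.08, edgeR adjusted p = 0.00606), and under DMSO its change of 0.13 did not pass. XBP1 (-0.04 and 0.09) and EIF2AK3 (-0.08 and -0.03) passed in neither comparison.

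The ATF4 targets moved in both directions with knockdown. PPP1R15A, the feedback subunit of the eIF2 phosphatase (chromosome 19, 48872392 to 48876057, GRCh38), rose under both treatments. It was at 20.5, 22.1 and 22.5 CPM in control and 28.8, 32.0 and 30.9 in knockdown cells given DMSO, and with temozolomide at 24.2, 18.9 and 20.4 in control and 33.9, 29.5 and 32.2 in knockdown cells. Every knockdown library exceeded every control library, and the log2 change was 0.49 (SE 0.08, edgeR adjusted p = 6.51e-05) under DMSO and 0.57 (SE 0.08, edgeR adjusted p = 8.33e-06) under temozolomide, rises of 40.9% and 48.6%. SESN2, a leucine-binding inhibitor of mTORC1 signalling, was at 23.0, 21.6 and 21.1 CPM in control and 24.4, 27.0 and 24.4 in knockdown cells given DMSO, and with temozolomide at 20.3, 21.5 and 18.2 in control and 31.0, 27.4 and 26.0 in knockdown cells. Its knockdown groups lay above their controls, with log2 changes of 0.21 (SE 0.08, edgeR adjusted p = 0.0442) and 0.49 (SE 0.08, edgeR adjusted p = 3.37e-05). DDIT3 (CHOP), a transcription factor linked to stress-induced death, was under DMSO at 22.8, 20.8 and 22.3 CPM in control and 26.6, 26.4 and 25.0 in knockdown cells. Under temozolomide it was at 20.7, 19.2 and 22.1 in control and 28.1, 23.5 and 22.2 in knockdown cells, with log2 changes of 0.24 (SE 0.08, edgeR adjusted p = 0.0259) and 0.25 (SE 0.08, edgeR adjusted p = 0.0183). Of its exon bases, 39.6% are shared with other genes of the table, among them MARS on the opposite strand, and whether counting used strand is not given in the sources used here, so its level is uncertain. Near the threshold, the DMSO calls of DDIT3 and SESN2 were lost in DESeq2 and without control DMSO 2 or knockdown DMSO 1 or 2 (SESN2 also without control DMSO 3 or knockdown DMSO 3), and that of DDIT3 under temozolomide without control temozolomide 2 or knockdown temozolomide 1.

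The pseudokinase TRIB3 and the glutathione-degrading enzyme CHAC1 passed in the knockdown comparison under temozolomide and not in the one under DMSO. TRIB3 was at 35.3, 31.3 and 34.2 CPM in control and 38.9, 35.3 and 34.1 in knockdown cells given DMSO, and with temozolomide at 32.9, 25.9 and 26.4 in control and 46.0, 39.0 and 35.9 in knockdown cells. Under DMSO, CHAC1 stood at 22.6, 18.5 and 20.3 CPM in control and 21.9, 22.5 and 23.3 in knockdown cells, and under temozolomide at 25.6, 19.2 and 22.2 in control and 34.7, 28.7 and 28.0 in knockdown cells. Under temozolomide all knockdown libraries of both genes were above all control libraries, whereas under DMSO the groups overlapped. The log2 changes under temozolomide were 0.49 (SE 0.09, edgeR adjusted p = 0.000149) for TRIB3 and 0.43 (SE 0.10, edgeR adjusted p = 0.000991) for CHAC1, and those under DMSO 0.10 and 0.14. The difference between these knockdown effects, tested directly below, passed for neither.

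Amino acid transporters moved in opposite directions. SLC7A11, the cystine and glutamate exchanger (chromosome 4, 138164097 to 138242349, GRCh38), was at 206, 206 and 185 CPM in control and 289, 272 and 281 in knockdown cells given DMSO, and with temozolomide at 259, 267 and 257 in control and 312, 311 and 308 in knockdown cells. The groups did not overlap, and in knockdown cells it was higher by 41.2% under DMSO, a log2 change of 0.50 (SE 0.04, edgeR adjusted p = 2.64e-09), and by 19.1% under temozolomide, a log2 change of 0.25 (SE 0.04, edgeR adjusted p = 2.24e-05). SLC7A5 (LAT1), which carries large neutral amino acids, stood under DMSO at 374, 364 and 340.0 CPM in control and 285, 311 and 278 in knockdown cells, and under temozolomide at 319, 301 and 285 in control and 266, 269.9 and 235 in knockdown cells. Its knockdown libraries were below their controls, with log2 changes of -0.30 (SE 0.05, edgeR adjusted p = 9.46e-05) and -0.23 (SE 0.05, edgeR adjusted p = 0.00156). SLC3A2, the heavy chain that both transporters share, was called higher under temozolomide, 0.22 (SE 0.06, edgeR adjusted p = 0.00584), although its groups overlapped (239, 209 and 201 CPM in control and 278, 238 and 239.9 in knockdown) and the call was lost without knockdown temozolomide 1; under DMSO its change was 0.08.

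The serine and one-carbon enzymes among the targets were level or lower. PHGDH, the first enzyme of serine synthesis, fell in both comparisons, with log2 changes of -0.20 (SE 0.04, edgeR adjusted p = 0.000593) and -0.18 (SE 0.04, edgeR adjusted p = 0.0016), and PSAT1, the next step, fell under temozolomide, with -0.17 (SE 0.03, edgeR adjusted p = 0.000547). ASNS (asparagine synthetase), SHMT2 and MTHFD2 passed in neither, with changes from -0.09 to 0.04. VLDLR, a lipoprotein receptor that PERK signalling can raise, fell from 115, 124 and 118 to 97.0, 101 and 97.9 CPM under DMSO and from 108, 106 and 109.9 to 79.8, 84.0 and 83.3 under temozolomide. Its groups did not overlap, and its log2 changes were -0.27 (SE 0.04, edgeR adjusted p = 8.49e-06) and -0.39 (SE 0.04, edgeR adjusted p = 8.05e-08).

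Over the 14 ATF4 targets, 4 rose and 3 fell with knockdown under DMSO (median 0.06), near the all-gene shares of 21.1% and 21.4%. Under temozolomide 7 rose and 4 fell (median 0.10), where the all-gene shares were 22% and 20.3%. All 4 that rose under DMSO also rose under temozolomide, and all 3 that fell also fell. Over all genes tested, 70.7% of the rises and 65.8% of the falls under DMSO were shared in this way. The shared targets made up 57.1% of the target rises and 75% of the target falls under temozolomide. Over all genes tested, the shared calls were 67.9% of the rises and 69.5% of the falls there. Beside these stands the ER class, in which 1 rose and 7 fell under DMSO and 0 rose and 11 fell under temozolomide; no test set the classes against each other. Over the 37 genes the median absolute log2 change was 0.13 under DMSO and 0.17 under temozolomide, against 0.17 and 0.16 over all genes. DESeq2 called 2 of the targets higher under DMSO, against 4, as did edgeR without control DMSO 2, without knockdown DMSO 1 or without knockdown DMSO 2. Under temozolomide, knockdown temozolomide 1 stood apart: the median of the 14 targets relative to control DMSO was 0.26 (log2) in it and 0.07 and 0.03 in the other knockdown temozolomide libraries, and 5 targets rose when it was left out.

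**Figure D3:**
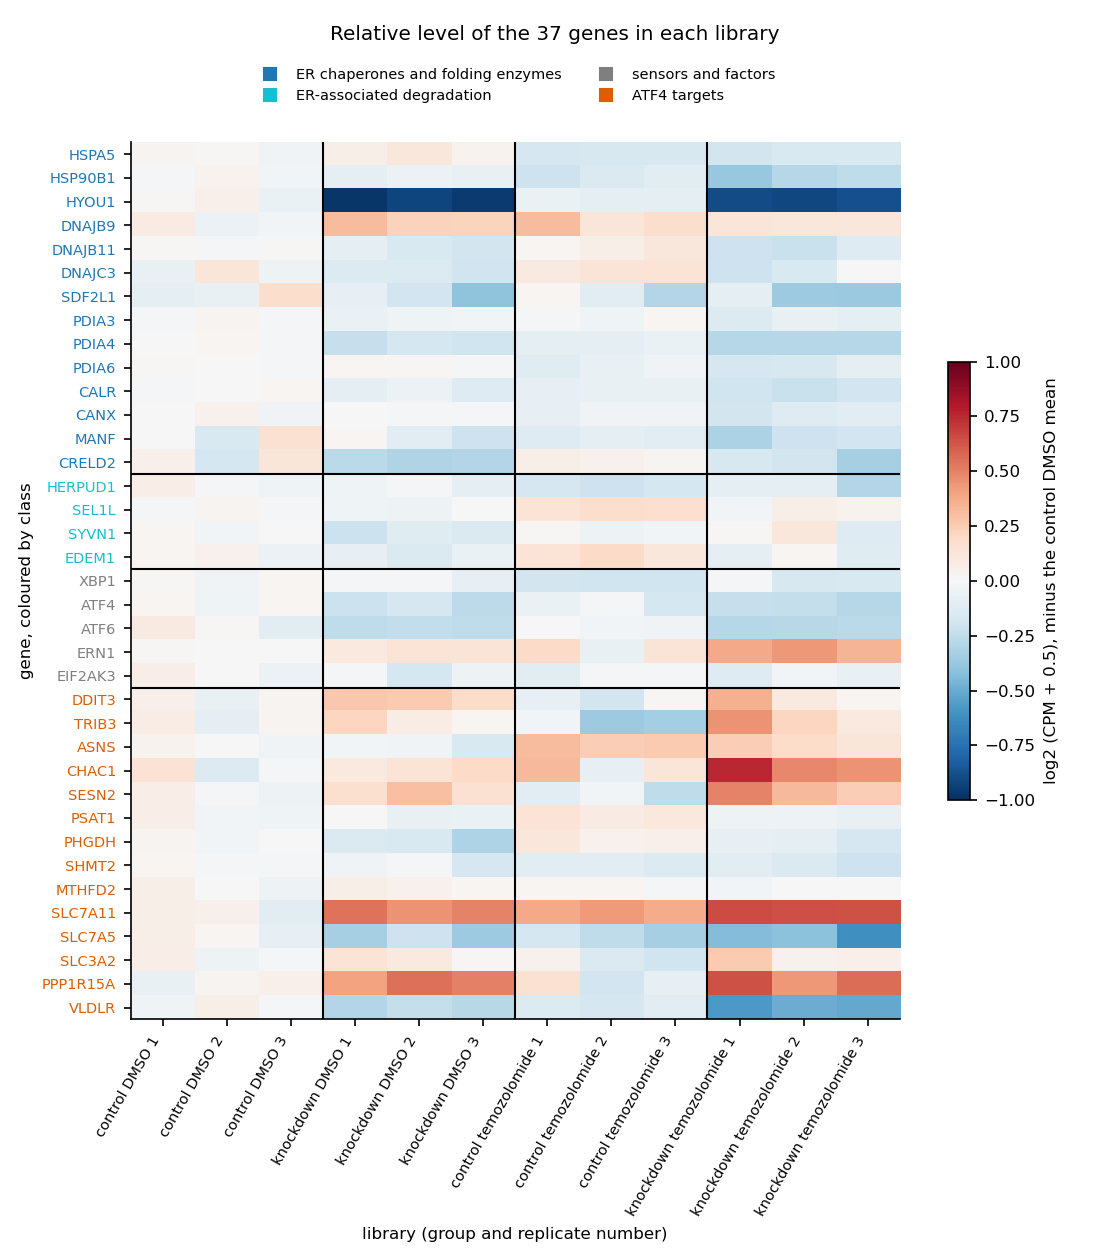
Relative level of the 37 genes (rows, grouped by class) in each of the 12 libraries (columns), as log2(CPM + 0.5) minus the mean of the control DMSO libraries, from blue (lower) to red (higher). HYOU1 is blue in all 6 knockdown libraries, PPP1R15A and SLC7A11 are red there, and SLC7A11 is also red in the control temozolomide libraries.

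Other genes of the same pathways, from lists that do not hold the 37, moved in both directions with knockdown, and their counts stand against all-gene shares of 21.1% higher and 21.4% lower under DMSO and 22% and 20.3% under temozolomide. Of 22 other ER folding enzymes, 2 rose and 7 fell under DMSO, and 2 rose and 10 fell under temozolomide. Both rises were the ER oxidases that feed disulfide formation: ERO1A, at 72.8, 79.7 and 67.5 CPM in control and 120.5, 119.7 and 124 in knockdown cells under DMSO, changed by 0.73 (SE 0.06, edgeR adjusted p = 1.04e-09), and its paralog ERO1B by 0.68 (SE 0.11, edgeR adjusted p = 2.93e-05). TXNDC5, a disulfide isomerase, fell, with a log2 change of -0.31 (SE 0.03, edgeR adjusted p = 8.44e-08). Among 22 genes of protein import into the ER and of transport from it, 1 rose and 7 fell under DMSO, and 2 rose and 9 fell under temozolomide. SPCS3, a subunit of the signal peptidase, went from 195, 206 and 187 to 116, 112 and 117 CPM under DMSO, a log2 change of -0.77 (SE 0.04, edgeR adjusted p = 8.22e-12), and SSR1, of the translocon-associated complex, changed by -0.40 (SE 0.03, edgeR adjusted p = 8.77e-09). Of 18 further ERAD genes tested (of 19 listed), 6 rose and 2 fell under DMSO, and 7 rose and 5 fell under temozolomide, with changes of at most 0.38 (AUP1, under temozolomide).

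On the side of the integrated stress response, 6 of 18 kinase, eIF2 and processing genes tested (of 19 listed) rose and 5 fell under DMSO, and 4 rose and 3 fell under temozolomide; the shares over all genes were again 21.1% and 21.4%, and 22% and 20.3%, so the counts under temozolomide were near them. Under DMSO the double-stranded RNA-activated eIF2 kinase EIF2AK2 (PKR) rose, with a log2 change of 0.48 (SE 0.06, edgeR adjusted p = 3.26e-06). PPP1R15B, the constitutive partner of PPP1R15A, rose there by 0.27 (SE 0.04, edgeR adjusted p = 4.25e-05) on the log2 scale. The haem-regulated eIF2 kinase EIF2AK1 changed by -0.16 under DMSO (SE 0.03, edgeR adjusted p = 0.000302). Of 24 further ATF4 targets tested (of 27 listed), 4 rose and 11 fell under DMSO (median -0.20), and 5 rose and 11 fell under temozolomide (median -0.14). ATF3, a stress-induced factor, was at 4.87, 5.31 and 5.93 CPM in control and 9.59, 9.89 and 10.2 in knockdown cells under DMSO, a log2 change of 0.88 (SE 0.12, edgeR adjusted p = 4.22e-06). ATF5, a related factor, changed by 0.55 (SE 0.10, edgeR adjusted p = 0.000226), whereas DDIT4 (REDD1), an mTORC1 inhibitor, changed by -0.57 (SE 0.05, edgeR adjusted p = 9.3e-09) and the arginine transporter SLC7A1 by -0.39 (SE 0.04, edgeR adjusted p = 9.3e-08). Of 20 cytosolic aminoacyl-tRNA synthetases, many of which ATF4 can raise, 1 rose and 8 fell with knockdown under either treatment; YARS1, for tyrosine, changed by -0.25 (SE 0.04, edgeR adjusted p = 1.34e-05) under DMSO.

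With temozolomide the RNA of HSPA5 and HSP90B1 fell slightly and that of ASNS and SLC7A11 rose, and no called change among the 37 genes was beyond 0.43 (log2) in either direction. HSPA5 fell in control cells, with a log2 change of -0.16 (SE 0.03, edgeR adjusted p = 0.000322), and in knockdown cells, with -0.23 (SE 0.03, edgeR adjusted p = 6.8e-06); the per-library levels given above did not overlap. HSP90B1 was at 1066, 1099 and 1054 CPM in control DMSO and 929.6, 971 and 996 in control temozolomide, and in knockdown cells at 1004, 1027 and 1021 with DMSO and 826, 880.1 and 898 with temozolomide. It changed by -0.15 (SE 0.03, edgeR adjusted p = 0.00211) in control and -0.23 (SE 0.03, edgeR adjusted p = 4.93e-05) in knockdown cells. HYOU1 passed in neither, with -0.08 and 0.05. In control cells HERPUD1 fell as well, with a log2 change of -0.19 (SE 0.05, edgeR adjusted p = 0.00694), while SEL1L and EDEM1 rose, by 0.16 (SE 0.03, edgeR adjusted p = 0.00131) and 0.15 (SE 0.04, edgeR adjusted p = 0.0123), and DNAJB9 by 0.22 (SE 0.08, edgeR adjusted p = 0.0389). PDIA4 and CALR were called lower in control cells with a log2 change of -0.08 each, calls lost in 15 and 17 of the 22 alternatives, and that of DNAJB9 was lost in 8. In knockdown cells PDIA6, CANX and CALR fell by between 0.11 and 0.15 on the log2 scale, and SYVN1 was called higher although its groups overlapped. The SYVN1 call was lost in DESeq2 and with only the groups compared. It was also lost without control DMSO 1, without any knockdown DMSO library, and without knockdown temozolomide 1 or 2.

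Over the ER class, 3 of 18 genes rose and 5 fell with temozolomide in control cells (median -0.06), where 11.7% of all genes were higher and 15.8% lower. In knockdown cells 1 rose and 5 fell (median -0.07), where 9.05% were higher and 13.2% lower. With scaling by library totals alone these became 5 risen and 1 fallen in control cells and 3 and 3 in knockdown cells, so that the balance turned in control cells, and limma on FPKM called 0 lower in control cells and 2 in knockdown cells. Over all genes, the share of calls that were rises went from 42.6% to 68.9% in control and from 40.6% to 70.1% in knockdown cells with library totals alone. For the knockdown comparisons the same change of scaling moved that share from 49.7% to 61% under DMSO and from 52% to 61.9% under temozolomide. The median log2 change of all genes was then 0.06 in control and 0.07 in knockdown cells. The falls of HSPA5 in both kinds of cell and of HSP90B1 in knockdown cells passed with library totals alone, that of HSP90B1 in control cells did not, and in limma on FPKM neither passed in control cells.

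Among the sensors, XBP1 fell in control cells, from 110.2, 107 and 111 to 96.2, 95.3 and 95.1 CPM, a log2 change of -0.19 (SE 0.04, edgeR adjusted p = 0.00161) that limma on FPKM did not call, and its change in knockdown cells was -0.07. ERN1 rose in knockdown cells, with a log2 change of 0.28 (SE 0.09, edgeR adjusted p = 0.0252); neither DESeq2 nor limma on FPKM called it. ATF4 passed in neither kind of cell (-0.09 and -0.04), nor did ATF6 (-0.02 and -0.03) or EIF2AK3 (-0.05 and 0.00).

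ASNS, which makes asparagine and is a standard ATF4 target, rose with temozolomide in both kinds of cell. It was at 196, 191 and 186 CPM in control DMSO and 239, 227 and 229 in control temozolomide, and in knockdown cells at 188, 186 and 172 with DMSO and 227, 217 and 208 with temozolomide. The treated libraries were above the untreated ones without overlap, and the log2 changes were 0.28 (SE 0.04, edgeR adjusted p = 2.78e-05) and 0.26 (SE 0.04, edgeR adjusted p = 8.47e-05), 21.3% and 19.7%. Of the exon bases of ASNS, 44.6% are shared with other annotated genes, none of them in the count table. Whether counting used strand is not given, so the level of ASNS is uncertain. SLC7A11 rose by 0.39 (SE 0.04, edgeR adjusted p = 3.45e-07) in control and 0.15 (SE 0.04, edgeR adjusted p = 0.0101) in knockdown cells. CHAC1 rose in knockdown cells, by 0.43 (SE 0.10, edgeR adjusted p = 0.00311), and its change in control cells was 0.14 (edgeR adjusted p = 0.33). SLC7A5 fell in both, with log2 changes of -0.25 (SE 0.05, edgeR adjusted p = 0.00116) and -0.18 (SE 0.05, edgeR adjusted p = 0.0208), and so did VLDLR, with -0.14 (SE 0.04, edgeR adjusted p = 0.00868) and -0.26 (SE 0.04, edgeR adjusted p = 8.18e-05). PSAT1 rose (0.11) and SHMT2 fell (-0.12) in control cells, calls lost with the GC correction. DDIT3, TRIB3, SESN2, PPP1R15A, PHGDH, MTHFD2 and SLC3A2 passed in neither; TRIB3 had a change of -0.23 in control and 0.16 in knockdown cells. In all, 3 of the 14 targets rose and 3 fell in control cells (median -0.05), and 3 rose and 2 fell in knockdown cells (median 0.05), where the all-gene shares were 11.7% higher and 15.8% lower in control and 9.05% and 13.2% in knockdown cells. The comparison in control cells shares the control DMSO libraries with the knockdown comparison under DMSO, and the one in knockdown cells shares the knockdown DMSO libraries with it. Both likewise share their temozolomide libraries with the knockdown comparison under temozolomide. The knockdown falls of SEL1L and EDEM1 there and their rises with temozolomide in control cells thus rest on the same control temozolomide libraries and are not independent.

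For the wider lists, the shares to read against are 11.7% of all genes higher and 15.8% lower in control cells, and 9.05% and 13.2% in knockdown cells. Of 20 tRNA synthetases, 0 rose and 12 fell in control cells and 0 rose and 9 fell in knockdown cells; at an unadjusted p below 0.05 edgeR also gave 0 rises. VARS1, for valine, changed by -0.45 (SE 0.04, edgeR adjusted p = 3.39e-08) in control cells and -0.23 (SE 0.04, edgeR adjusted p = 0.000197) in knockdown cells. Of the 24 further ATF4 targets tested, 3 rose and 9 fell in both kinds of cell. PYCR1, the last step of proline synthesis, changed by -0.45 (SE 0.06, edgeR adjusted p = 3.64e-06) and -0.33 (SE 0.06, edgeR adjusted p = 0.000348), and the one-carbon enzyme MTHFD1L by -0.31 and -0.23, while ATF3 rose in control cells by 0.51 (SE 0.12, edgeR adjusted p = 0.00334). Among other ER folding enzymes 4 rose and 2 fell in control cells, led by ERO1B at 0.57 (SE 0.11, edgeR adjusted p = 0.00047), and 1 rose and 1 fell in knockdown cells. The further ERAD genes had 3 rises and 0 falls (0 at an unadjusted p below 0.05 in edgeR) in control and 7 rises and 1 fall in knockdown cells, with EDEM3 at 0.29 and 0.32. Import and transport genes had 3 rises and 1 fall in control and 0 rises (1 at an unadjusted p below 0.05 in edgeR) and 6 falls in knockdown cells, and the eIF2 and processing genes 2 and 2 in control and 1 and 4 in knockdown cells.

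**Figure D4:**
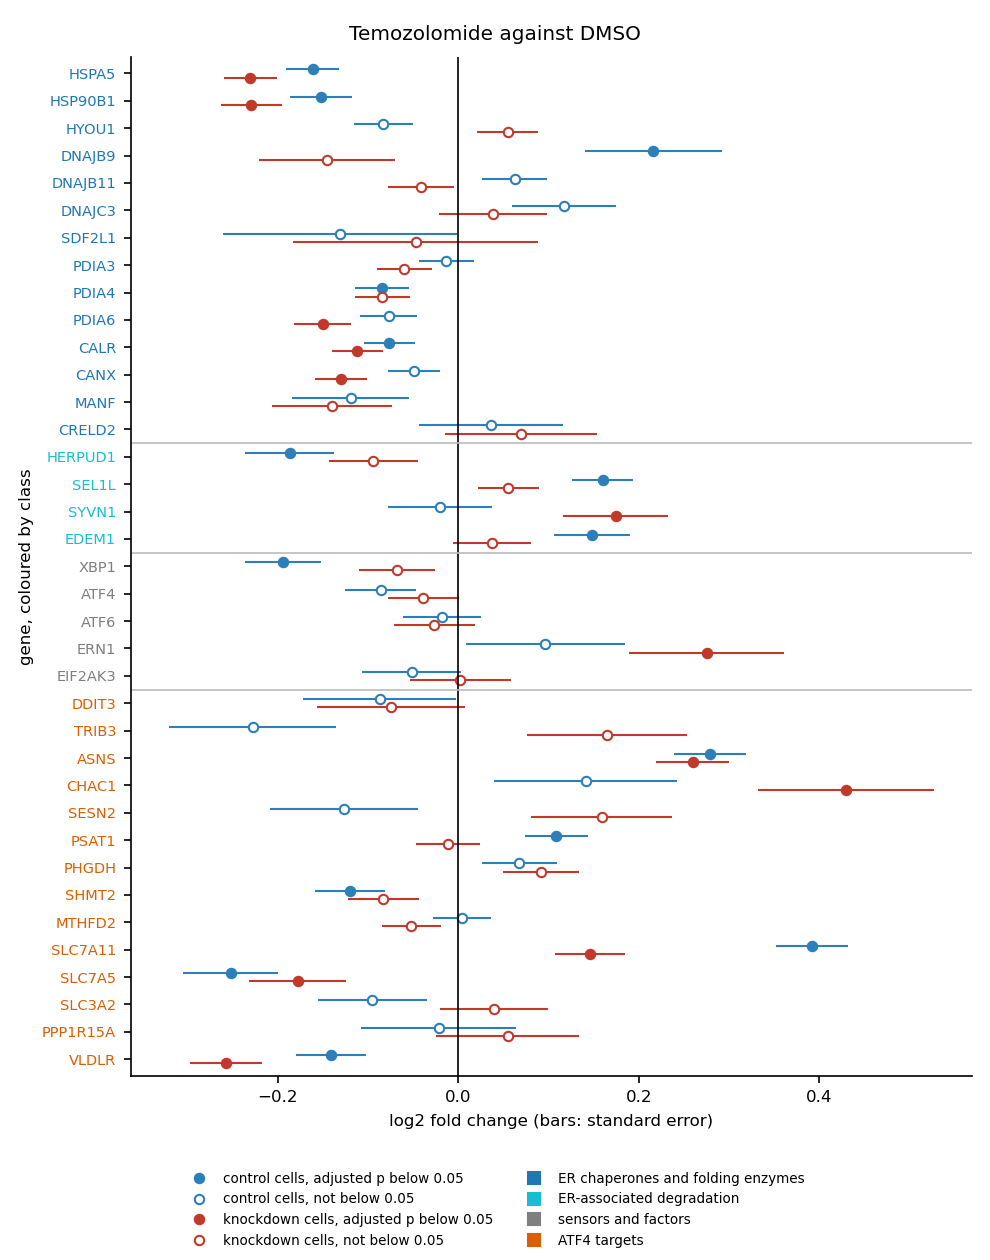
Log2 fold change of temozolomide against DMSO for each of the 37 genes, in control cells (blue) and in knockdown cells (red); bars are standard errors, filled points passed the adjusted p threshold of 0.05, and gene names are coloured by class. ASNS, SLC7A11 and, in knockdown cells, CHAC1 lie to the right, HSPA5, HSP90B1, SLC7A5 and VLDLR to the left.

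Whether knockdown altered the response to temozolomide was tested as the difference between the drug's effects in knockdown and in control cells. Over all genes 0.437% were called higher and 0.616% lower by this test in edgeR, whereas limma on FPKM called no gene. Of the 37 genes only SLC7A11 was called, with a smaller rise in knockdown cells: the difference was -0.25 (SE 0.06, edgeR adjusted p = 0.0388). In control cells its range was 185 to 206 CPM with DMSO and 257 to 267 with temozolomide, and in knockdown cells, where the untreated level was already higher, 272 to 289 and 308 to 312. The call lay close to the threshold and was lost with the GC correction, in limma on FPKM and when any 1 of 7 libraries was left out: control DMSO 1, knockdown DMSO 1 or 3, control temozolomide 2 or 3, or knockdown temozolomide 1 or 2. TRIB3, with a difference of 0.39 (SE 0.13, edgeR adjusted p = 0.116), and DNAJB9, with -0.36 (SE 0.11, edgeR adjusted p = 0.0866), had larger differences with wider errors and did not pass; TRIB3 passed with no low-count filter and without control temozolomide 1. For CHAC1 and SESN2 the differences were 0.29 (SE 0.14, edgeR adjusted p = 0.292) and 0.29 (SE 0.11, edgeR adjusted p = 0.192). None of the 18 ER-class genes passed in edgeR or in DESeq2 (median -0.06; in edgeR, 2 higher and 2 lower at an unadjusted p below 0.05), and HYOU1 differed by 0.14 (SE 0.05, edgeR adjusted p = 0.129). Outside the 37, the double-stranded RNA-activated eIF2 kinase EIF2AK2 (PKR) had a difference of -0.40 (SE 0.09, edgeR adjusted p = 0.0388), from 213, 224 and 189 CPM in control DMSO to 214, 229 and 222 in control temozolomide, and from 284, 296 and 291 in knockdown DMSO to 267, 215 and 221 in knockdown temozolomide.

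**Figure D5:**
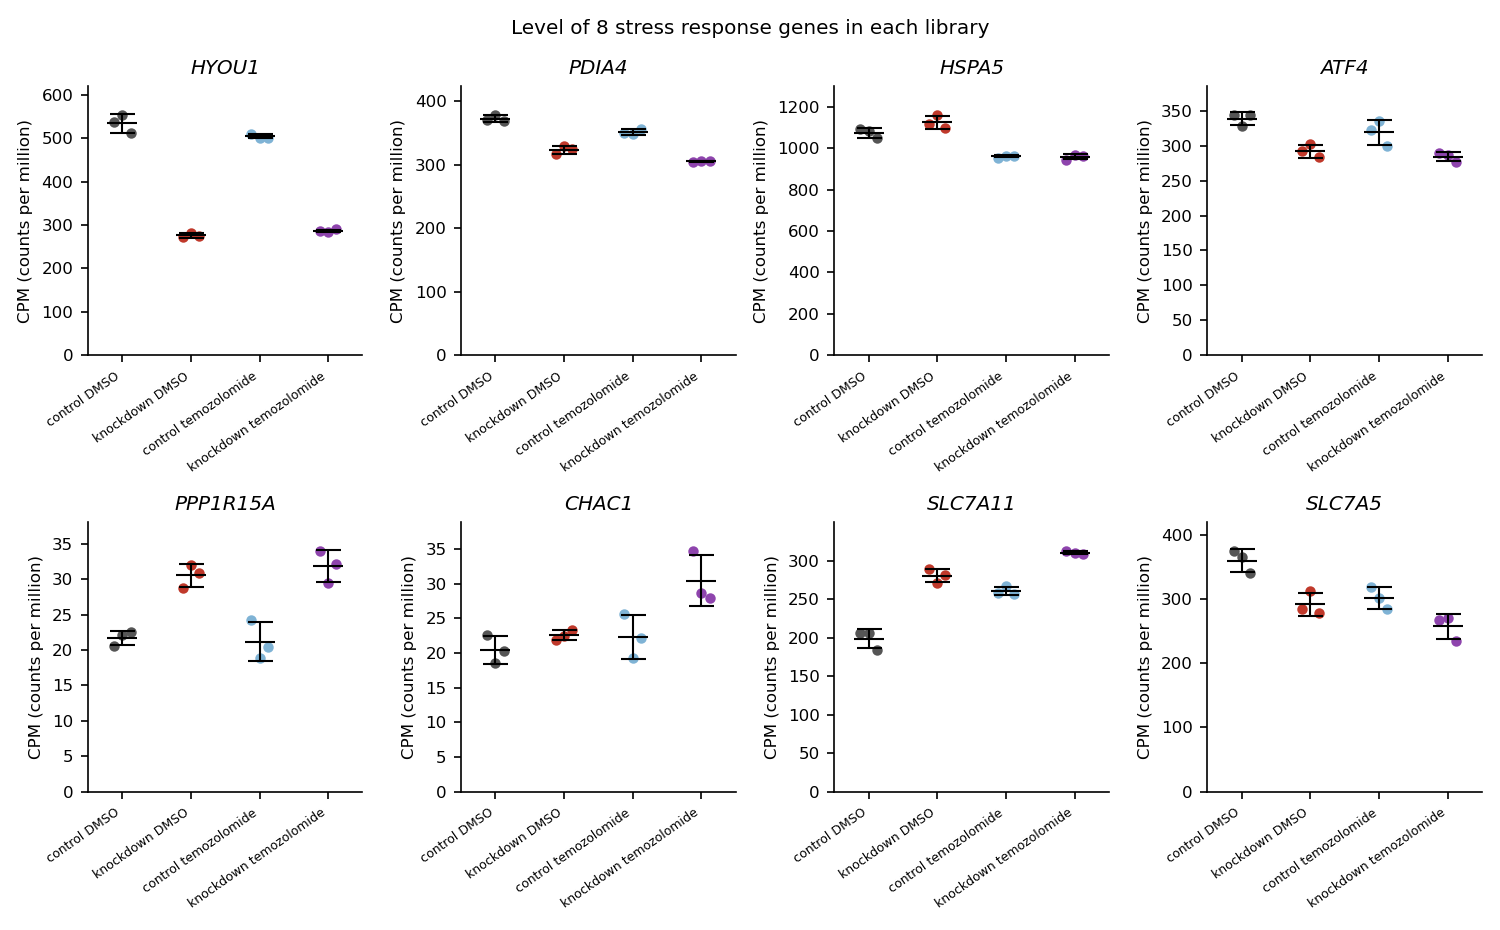
Level (CPM, axes from 0) of 8 of the genes in each library; points are libraries, lines and bars the mean and SD of 3. HYOU1 and PDIA4 separate by knockdown, HSPA5 by temozolomide, PPP1R15A by knockdown, CHAC1 is highest in knockdown temozolomide, and SLC7A11 differs in all 4 groups.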

How the data were processed

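RNA of 12 U251 libraries was sequenced after poly(A) selection, per the labels' protocols. The deposited table holds estimated counts per gene and FPKM values (fragments scaled to transcript length and library size) made by the authors; per the submitters' processing notes the tools included RSEM, HISAT2, StringTie 1.3.1, Bowtie2 2.2.8 and fastp 0.18.0, and the genome build is not given in the sources used here. Between 10.7% and 12.0% of a library's values were not whole, so the counts were rounded. Genes were filtered with filterByExpr and fitted with edgeR 4.0.16 (R 4.3.3; trimmed mean of M values, 4 group means, 12 libraries, Benjamini-Hochberg over 12821 genes). The biological coefficient of variation was 3.90%. The table held 20289 genes, of which 3153 had no count. Alternatives used DESeq2 1.42.0 and limma 3.58.1 on log2(FPKM + 1) or log2(FPKM + 0.1), and each library was left out in turn. Replicate libraries differed by more than sampling noise, so none was counted as a duplicate.

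The 37 genes and the other gene lists were chosen with earlier results of these data known. All 37 could be named; from each other list, up to 2 called rises and 2 called falls per comparison with the smallest p could be. Locations came from GENCODE release 29 (GRCh38), which held 20171 of the 20289 gene IDs, with overlaps counted over annotated exons. Counts per gene could be split with other genes for DNAJB11, PDIA3 and PDIA6, not whole in all 12 libraries, and for MTHFD2 in 11 and DDIT3 in 9.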

Additional observations from a re-analysis of the deposited data

Results flagged for a closer look

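SLC7A11, the cystine and glutamate exchanger, differed between control and knockdown cells in its response to temozolomide, by a direct test of that difference: -0.25 on the log2 scale (edgeR adjusted p = 0.0388), with a rise of 0.39 in control cells and 0.15 in knockdown cells. All 3 treated libraries were above all 3 untreated ones in each kind of cell. The call lay close to the threshold. It was lost with the GC correction, in limma on FPKM and when any of several single libraries was left out.

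EIF2AK2, the double-stranded RNA-activated eIF2 kinase PKR, differed by the same test, at -0.40 (edgeR adjusted p = 0.0388). Its level fell with temozolomide in knockdown cells by 0.31 on the log2 scale, and the knockdown temozolomide libraries ran from 215 to 267 CPM. This call also lay close to the threshold, and limma on FPKM called no gene for the difference.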

How the results depend on the processing

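Over 5 comparisons, 185 results for the 37 genes were recomputed under each alternative, and no called change reversed its direction; values that did not pass and changed sign were not counted. With relative log expression factors 183 kept their side of the threshold, with DESeq2 167 (it gave no adjusted p for 7), with no low-count filter 178, with library totals alone 161, with the GC correction 160, with only the groups compared 141 of 148 (no value for the difference), and in limma on FPKM 158, 159 and 155. Over all genes the difference between responses gave 56 rises and 79 falls in edgeR, 110 and 195 in DESeq2, 187 and 359 with no filter, 103 and 119 with the replicate block, 11 and 24 with the GC correction, and 0 and 0 in limma on log2(FPKM + 1).

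Counts that moved beyond a set factor, or to or from 0, were these, and smaller changes are not listed. Knockdown under DMSO: ER-class rises 2 (library totals, limma) and 0 (GC), falls 4 (library totals, limma) and 11 (GC), ATF4-target rises 2 (DESeq2), falls 5 (GC). Knockdown under temozolomide: ER-class falls 7, 7 and 6 (limma). Temozolomide in control cells: ER-class rises 5 (library totals), falls 1 (library totals), 3 (no filter; only the groups compared) and 0 (limma), ATF4-target falls 1 (library totals, limma) and 0 (limma, no filter). Temozolomide in knockdown cells: ER-class rises 3 (library totals) and 0 (DESeq2; only the groups compared), falls 3 (library totals) and 2 (limma), ATF4-target rises 5 (library totals), falls 1 (library totals, limma). Difference: ATF4-target rises 1 (no filter), falls 0 (GC, limma). The causes were not tested. With 1 library left out, knockdown under DMSO gave 1 to 2 ER-class rises, 4 to 8 falls and 2 to 4 ATF4-target rises. Knockdown under temozolomide gave 9 to 12 ER-class falls, 5 to 7 ATF4-target rises and 4 to 5 falls. Temozolomide in control cells gave 1 to 3 ER-class rises and 2 to 5 falls, and 2 to 3 ATF4-target rises and 2 to 4 falls. In knockdown cells it gave 0 to 1 ER-class rises and 5 to 6 falls, and 2 to 3 ATF4-target rises and 1 to 3 falls. The difference gave 0 to 1 rises and 0 to 1 falls of ATF4 targets. The remaining counts stayed the same.

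The labels do not say that replicate numbers pair libraries. Correlations between the deviations of same-numbered libraries were low (18 pairs, r from -0.08 to 0.14). For 6 of 12 libraries the best match had the same number, and whether that is more than chance gives was not tested. With no pairing in the labels, the combined GC and pairing fit was not run. With a replicate block 181 of the 185 kept their side, 4 newly passed and 0 were lost, and 1 ATF4 target (TRIB3) rose in the difference.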
